A study of Homo sapiens with 6 samples.

Results

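The 40 genes described here encode parts of the centromere, the kinetochore and the spindle assembly checkpoint. They were taken by symbol from GENCODE, all 40 were found among the 58676 gene identifiers of the count table, and 39 of them had enough reads to be tested among 19072 genes. They were placed by function in 6 groups, the inner kinetochore (14 genes), the outer kinetochore (12), the fibrous corona (3), the checkpoint kinases and their partners (5), the chromosomal passenger complex (4) and the shugoshins (2). RNA-Seq was performed in MRC5 cells, an established line of human lung fibroblasts, for which the labels name no genetic change. For 24 h the fibroblasts received conditioned media (CM) from ATII ER:KRASV12 cells, an alveolar epithelial line with a RAS protein that 4-hydroxytamoxifen (4-OHT) switches on. CM came from control ATII cells for 3 libraries (control CM) and from ATII cells given 4-OHT for the other 3 (4-OHT CM). No library comes from fibroblasts given 4-OHT on its own, and whether the collected CM still held 4-OHT is not stated in the sources used here, so that effects of the drug and of factors released by the ATII cells cannot be told apart. The labels name replicates 1 to 3 in each group without saying that they came from separate cultures, so *p* values measure the spread between these libraries, which may be technical.

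The centromere is marked by nucleosomes that hold the histone H3 variant CENP-A, and the constitutive inner kinetochore proteins sit on these throughout the cell cycle. The outer kinetochore is built on top of them as cells enter mitosis and grips spindle microtubules. Checkpoint proteins gather at kinetochores that lack microtubules and hold back anaphase, whereas the passenger complex and the shugoshins correct faulty attachments and protect sister cohesion. Transcripts of many of these genes are known to peak in late S, G2 and M phase, so that their level in a culture depends on how many of its cells are dividing. In bulk RNA, fewer dividing cells and less transcript per dividing cell cannot be told apart.

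Read counts on genes summed to between 17691849 and 26389449 per library, with a square root of the common dispersion (the usual variation between replicates beyond counting noise) of 4.36%. Replicate 2 of control CM, which had the fewest counts, stood apart from the other 5 libraries on the first principal component (24.5% of the variance). All 9 fibroblast markers passed the abundance filter, and their summed level was 41020 to 44535 CPM (reads per gene after scaling libraries to 1 size) in control CM and 42888 to 44629 CPM in 4-OHT CM. Of these, 1 was lower (*VIM*) and 4 were higher (*COL3A1*, *PDGFRA*, *DCN* and *LUM*) in 4-OHT CM. Over all genes tested, 2.76% were called lower and 2.95% higher. Of 11 epithelial markers, 6 were tested and none was called in edgeR or at an unadjusted *p* below 0.05 (0 and 0). Their summed level was 92.3 to 98.2 CPM in control CM and 90.1 to 96.4 CPM in 4-OHT CM. Most of it came from the keratins *KRT18* (7083 counts in all), *KRT8* (4481) and *KRT19* (954). Of the type II markers, *SFTPA1* and *NKX2-1* had no count in any library, *SFTPC* and *SFTPB* had 1 each and *ABCA3* had 147 in all.

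Exposure to 4-OHT CM was accompanied by lower transcript levels across much of the kinetochore. Counts were compared with edgeR's quasi-likelihood test, and genes with a Benjamini-Hochberg adjusted *p* below 0.05 over all 19072 genes were taken as differentially expressed genes (DEGs). Of the 39 genes tested, 24 (61.5%) were downregulated DEGs and 0 were upregulated, whereas 2.76% of all genes tested were downregulated and 2.95% were upregulated. At an unadjusted *p* below 0.05 the test gave 27 of the 39 and 3306 of the 19072 genes, and DESeq2 called 22 downregulated and 0 upregulated. Their log2 fold changes had a median of -0.45 and a range from -0.87 (*SPC25*, which rests on few reads) to 0.05, with -0.81 as the lowest value of a DEG, and 37 of the 39 values were below 0. Over all genes tested the median was -0.0020. In 29 of the 39 genes every 4-OHT CM library lay below every control library, a pattern held by 10.4% of all genes tested. The drop was at least 1.5-fold in 11 of the DEGs, against 0.336% of all genes tested. Fits that omitted 1 library gave 16 to 21 DEGs among these genes, with the fewest without replicate 2 of 4-OHT CM and 21 without replicate 2 of control CM.

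The summed level of the genes was 629, 650 and 640 CPM in control CM replicates 1 to 3 and 536, 515 and 521 CPM in 4-OHT CM replicates 1 to 3. The groups did not overlap. Transcripts that mark cycling cells moved in the same direction. *MKI67*, a marker of proliferating cells, had a mean of 41.5 ± 4.60 CPM with control CM against 24.2 ± 0.896 CPM (SD over the 3 libraries), so that its log2 fold change was -0.78 ± 0.070 (SE, edgeR adjusted *p* = 1.01e-05). *TOP2A*, the topoisomerase that untangles sister chromatids, had a log2 fold change of -0.56 ± 0.049 (edgeR adjusted *p* = 8.81e-06). The part of the cycling fraction in the results below was not tested.

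**Figure D1:**
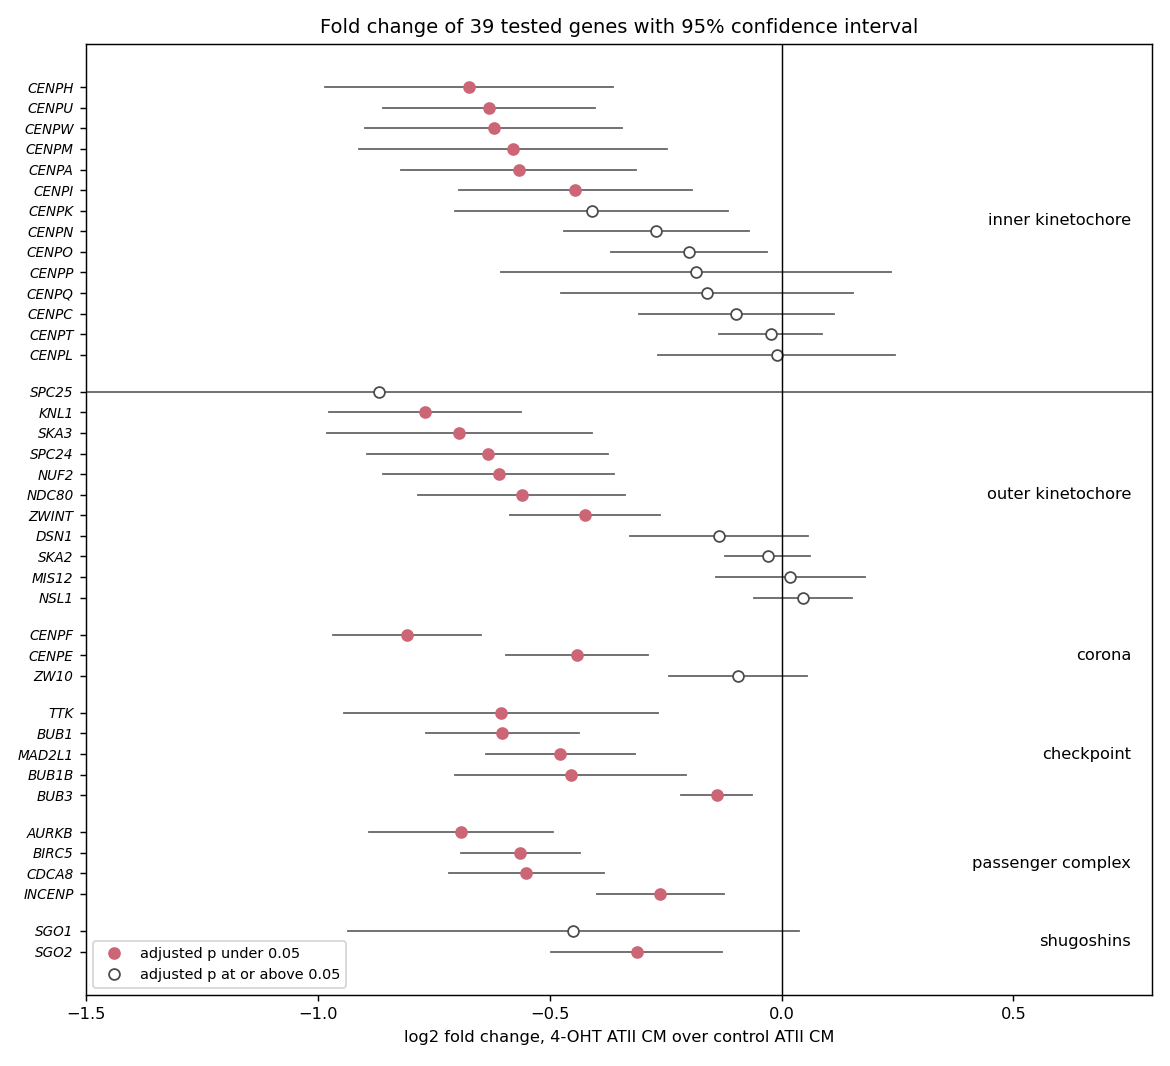
Log2 fold change of the 39 genes tested (4-OHT CM over control CM, 3 libraries each), arranged by group, with points for the edgeR estimates and lines for 95% confidence intervals. The 24 filled points are DEGs and all lie left of 0, while the interval of *SPC25* (-2.55 to 0.81) runs past both edges of the plot.

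Because so many of the genes moved together, their promoters were read from the RefSeq table of build GRCh38.p14, which lists a window of 300 bases (250 before the start site and 50 after it) for 33 of the 40 genes. *CENPH*, *CENPL*, *CENPM*, *KNL1*, *BUB3*, *TTK* and *BIRC5* have no entry. Each window was searched on both strands for 3 kinds of letters. These were the cell cycle homology region (CHR, TTTGAA), which the MuvB complexes of late cell cycle genes are known to contact, the CCAAT box (CCAAT), the NF-Y binding letters, and E2F-type letters (TTTCCCGC, TTTGGCGC, TTTCGCGC or TTTGCCGC). The windows below are those of the DEGs with the smallest *p* in the inner kinetochore, outer kinetochore, checkpoint and passenger groups among DEGs with an entry, and of *CENPF*, which was added after the values were seen because it had the smallest *p* of all 39 genes. *KNL1* and *BIRC5* had smaller *p* values than *ZWINT* and *AURKB* in their groups. Capitals mark matches on either strand, none of which overlaps another, and each line reads 5′ to 3′ along the strand of the gene. *CENPU* lies at chr4:184734047-184734346 (minus strand), *ZWINT* at chr10:56361210-56361509 (minus), *CENPF* at chr1:214602945-214603244 (plus), *BUB1* at chr2:110678014-110678313 (minus) and *AURKB* at chr17:8210176-8210475 (minus). The table has 2 start sites for *ZWINT* and for *AURKB*, and the window with the lower coordinates is shown. As both genes lie on the minus strand, this is the start site further downstream. The annotated *AURKB* gene begins at 8210600 on this strand, so the whole *AURKB* window shown lies inside the gene.
CENPU: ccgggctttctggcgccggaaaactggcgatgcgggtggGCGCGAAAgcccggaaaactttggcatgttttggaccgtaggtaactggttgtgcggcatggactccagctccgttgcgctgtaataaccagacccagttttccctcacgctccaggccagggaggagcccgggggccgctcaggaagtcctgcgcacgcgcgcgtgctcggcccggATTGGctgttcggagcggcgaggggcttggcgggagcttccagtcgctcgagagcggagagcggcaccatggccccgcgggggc
ZWINT: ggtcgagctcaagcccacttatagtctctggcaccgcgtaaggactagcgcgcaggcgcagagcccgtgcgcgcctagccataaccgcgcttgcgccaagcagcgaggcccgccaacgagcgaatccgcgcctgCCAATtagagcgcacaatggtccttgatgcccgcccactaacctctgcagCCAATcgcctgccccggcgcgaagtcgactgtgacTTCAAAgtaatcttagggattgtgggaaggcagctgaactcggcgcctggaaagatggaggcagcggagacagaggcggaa
CENPF: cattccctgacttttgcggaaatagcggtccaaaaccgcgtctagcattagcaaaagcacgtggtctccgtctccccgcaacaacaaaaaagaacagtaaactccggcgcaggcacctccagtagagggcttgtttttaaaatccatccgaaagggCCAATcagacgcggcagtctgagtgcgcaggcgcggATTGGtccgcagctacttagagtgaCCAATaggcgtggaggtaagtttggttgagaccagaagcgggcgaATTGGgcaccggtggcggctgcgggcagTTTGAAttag
BUB1: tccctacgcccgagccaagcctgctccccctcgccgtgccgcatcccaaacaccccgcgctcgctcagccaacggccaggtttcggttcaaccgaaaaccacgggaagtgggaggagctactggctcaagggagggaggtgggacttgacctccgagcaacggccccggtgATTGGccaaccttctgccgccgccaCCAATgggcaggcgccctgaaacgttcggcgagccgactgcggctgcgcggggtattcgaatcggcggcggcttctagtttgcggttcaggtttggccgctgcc
AURKB: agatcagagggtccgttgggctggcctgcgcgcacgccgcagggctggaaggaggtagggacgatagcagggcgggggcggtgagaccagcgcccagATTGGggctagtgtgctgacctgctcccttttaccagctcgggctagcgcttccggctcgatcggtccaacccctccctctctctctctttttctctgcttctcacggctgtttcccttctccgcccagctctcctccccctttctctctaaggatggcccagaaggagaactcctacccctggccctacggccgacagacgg

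The *ZWINT* window held a CHR match at -31 (counted in bases from the start site), on the opposite strand, and CCAAT matches at -116 and -66. *CENPF* had CCAAT letters at -94, -58, -33 and 12 and a CHR match at 40. *CENPU* held E2F-type letters at -211 and a CCAAT match at -34. The *BUB1* window had CCAAT matches at -79 and -54, and that of *AURKB* had 1 at -153. Neither of the last windows held TTTGAA.

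CHR letters were found in 15 of the 32 tested genes with an entry (46.9%), against 14.0% of the 12336 tested genes in the table and 15.2% of its 35116 windows. Split by call, they were in 10 of 18 DEGs (55.6%) and in 5 of 14 genes that were not DEGs (35.7%). CCAAT letters were in 12 of the 18 DEGs (66.7%) and in 10 of the 14 others (71.4%), against 41.8% of tested genes and 34.6% of all windows. E2F-type letters were in 2 of the 18 and 1 of the 14, against 6.25% of tested genes and 3.31% of all windows. The median log2 fold change was -0.48 in genes with CHR letters and -0.41 in those without, and the order was the opposite within the DEGs (-0.56 with and -0.61 without). A match is a description of the letters and not a binding site, and none of these shares was tested.

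In the inner kinetochore, 6 of 14 genes were downregulated DEGs and 0 were upregulated, with a median log2 fold change of -0.34 and all 14 values below 0. The shares over all genes tested, 2.76% downregulated and 2.95% upregulated, stand beside this count and those of the groups below. *CENPA*, the centromeric histone itself, was at 6.98, 6.22 and 6.62 CPM in control CM replicates 1 to 3 and at 4.8, 4.01 and 4.60 CPM in 4-OHT CM. Every 4-OHT library was below every control library. *SLC35F6* covers 7.0% of its exons on the same strand. Its log2 fold change was -0.57 ± 0.12 (SE, edgeR adjusted *p* = 0.00894). *CENPC*, which binds the CENP-A nucleosome and carries the rest of the inner kinetochore, was at 10.3, 9.29 and 11.5 CPM and then at 10.4, 8.82 and 9.97 CPM. Its groups overlapped and the interval of its log2 fold change ran from -0.31 to 0.11.

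The 4 members of the CENP-H/I/K/M complex, which links CENP-C with the other inner modules, all lay lower in every 4-OHT library. *CENPH* was at 5.72, 5.99 and 6.13 CPM in control CM and at 2.83, 4.01 and 4.26 CPM in 4-OHT CM, a log2 fold change of -0.67 ± 0.15 (edgeR adjusted *p* = 0.0110). Replicate 1 of 4-OHT CM was the lowest. *CENPI* changed by -0.45 ± 0.12 (edgeR adjusted *p* = 0.0365) and *CENPM* by -0.58 ± 0.16 (edgeR adjusted *p* = 0.0397). *CENPK* had -0.41 ± 0.14 and was not a DEG (edgeR adjusted *p* = 0.109).

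Of the histone fold proteins CENP-T and CENP-W, which bind DNA as a dimer and reach out to the NDC80 complex, the transcript of the smaller was lower and that of the larger was not called. *CENPW* was at 8.2, 7.34 and 6.0 CPM in control CM and at 4.34, 4.69 and 4.91 CPM in 4-OHT CM, with a log2 fold change of -0.62 ± 0.13 (edgeR adjusted *p* = 0.00894). *CENPT* was at 36.8, 41.4 and 39.3 CPM and then at 37.5, 40.1 and 37.8 CPM. Its groups overlapped, and its log2 fold change was -0.02 with an interval from -0.14 to 0.09. Of its merged exons, 19.6% are shared with genes on the other strand (*NUTF2*, *TSNAXIP1* and *THAP11*).

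The remaining inner genes held 1 DEG. *CENPU*, a docking site for the kinase PLK1 in the CENP-O/P/Q/U complex and the gene whose promoter heads the lines above, was at 8.95, 9.01 and 7.77 CPM in control CM and at 5.89, 5.45 and 5.25 CPM in 4-OHT CM. Its log2 fold change was -0.63 ± 0.11 (edgeR adjusted *p* = 0.00212). Its partners were not DEGs, with log2 fold changes of -0.20 for *CENPO*, -0.18 for *CENPP* and -0.16 for *CENPQ*. *CENPL* and *CENPN*, which form a complex that recognizes the CENP-A nucleosome, had -0.01 and -0.27 (edgeR adjusted *p* = 0.981 and 0.122). Groups overlapped in *CENPP*, *CENPQ* and *CENPL*, but not in *CENPO* or *CENPN*. Exons of other genes cover 42.7% of the exons of *CENPP* (mostly *IPPK*), 31.4% of *CENPO* (mostly *ADCY3*), 22.8% of *CENPN* and 11.7% of *CENPU*. Whether reads were counted by strand is not stated, so reads of these genes and of their overlapping partners may be mixed.

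**Figure D2:**
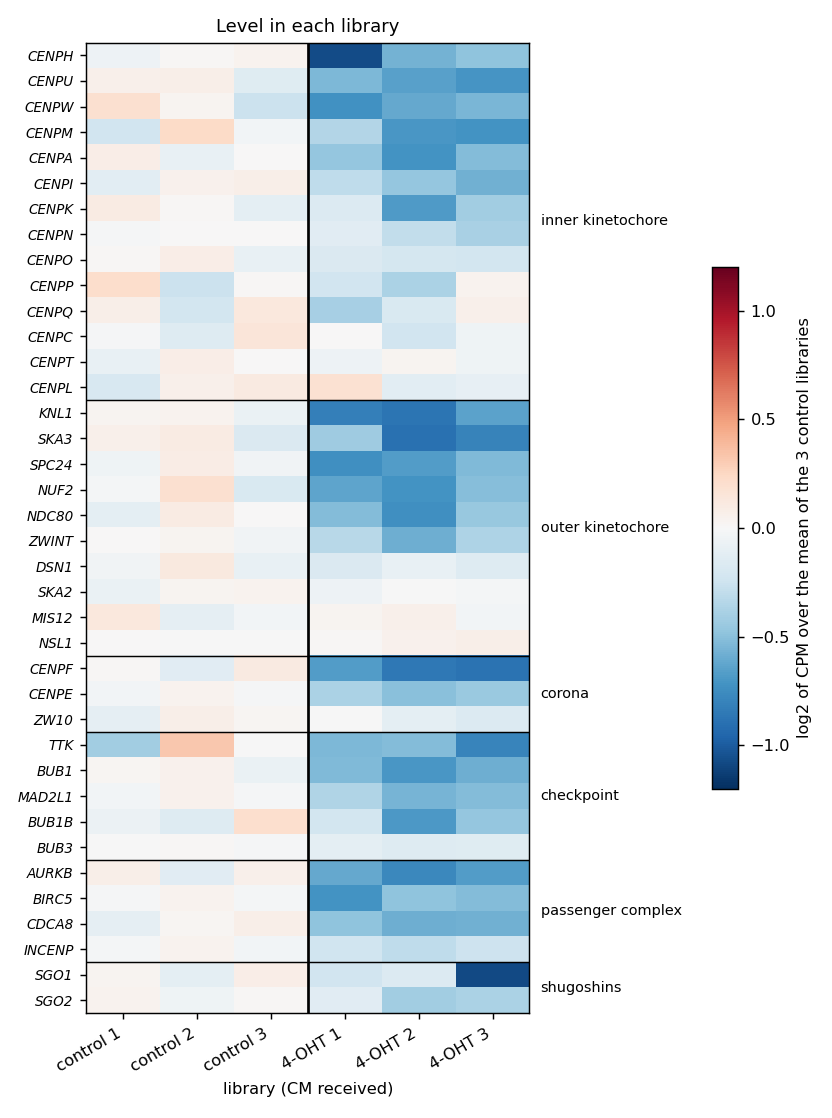
Level of 38 genes in each of the 6 libraries as the log2 of CPM over the mean of the 3 control libraries, with blue for lower and red for higher; *SPC25* and *SKA1*, which had few reads, are left out. Columns of 4-OHT CM are blue in most genes, and pale in *CENPC*, *CENPT*, *CENPL*, *DSN1*, *SKA2*, *MIS12*, *NSL1*, *ZW10* and the DEG *BUB3*.

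The outer kinetochore had 6 downregulated DEGs among 11 genes tested and 0 upregulated, with a median log2 fold change of -0.56. All 3 measurable subunits of the NDC80 complex, the main microtubule receptor, were DEGs. *NDC80* was at 9.04, 10.5 and 9.84 CPM in control CM and at 6.85, 5.89 and 7.15 CPM in 4-OHT CM (log2 fold change -0.56 ± 0.10, edgeR adjusted *p* = 0.00422). *NUF2*, its direct partner, was at 8.48, 9.85 and 7.59 CPM and then at 5.57, 5.25 and 6.05 CPM (-0.61 ± 0.12, edgeR adjusted *p* = 0.00495). *SPC24*, which ties the complex to the inner kinetochore, changed by -0.63 ± 0.12 (edgeR adjusted *p* = 0.00511). In none of these genes did the groups overlap.

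The other subunit, *SPC25*, had only 9, 28 and 3 counts in control CM and 21, 3 and 2 counts in 4-OHT CM. The groups overlapped, and its log2 fold change of -0.87 ± 0.79 had an interval from -2.55 to 0.81. The value turned to 0.40 without control CM replicate 2, which held 28 of the counts, and to -2.70 without 4-OHT CM replicate 1, so that neither a size nor a direction can be read from it. *SKA1*, a subunit of the SKA complex that follows depolymerizing microtubule ends, had 1 count over the 6 libraries and was not tested. These were the lowest counts of the 40 genes, and *SPC25* and *SKA1* were also the only ones with a near-identical copy on an alternate contig of GRCh38, with 100% of the transcript aligned at 99.85% and 100% identity. The sources used here do not state whether the authors' genome held such contigs or what was done with reads that fit more than 1 place, and the part of these copies in the low counts was not tested.

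*KNL1*, the scaffold on which BUB1 and BUBR1 assemble, was at 11.2, 11.3 and 10.4 CPM in control CM and at 6.21, 5.98 and 7.04 CPM in 4-OHT CM. The lowest control library was well above the highest 4-OHT library. Its log2 fold change was -0.77 ± 0.098 (edgeR adjusted *p* = 0.000206), the largest drop among the outer DEGs. *ZWINT*, its partner, was at 20.1, 20.6 and 19.5 CPM and then at 15.9, 13.4 and 15.6 CPM (-0.42 ± 0.076, edgeR adjusted *p* = 0.0032).

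The MIS12 complex, which joins KNL1 and NDC80 to the inner kinetochore, had no DEG in edgeR or DESeq2 among *MIS12*, *NSL1* and *DSN1*, and none of them had an unadjusted *p* below 0.05. *MIS12* was at 17.8, 15.2 and 15.9 CPM in control CM and at 16.7, 17.0 and 15.9 CPM in 4-OHT CM, with overlapping groups. *NSL1* was at 29.8, 29.6 and 29.6 CPM and then at 30.01, 30.8 and 31.1 CPM. It was the only gene of the 39 whose 4-OHT libraries all lay above the controls, with a log2 fold change of 0.05 and an interval from -0.059 to 0.15 (edgeR adjusted *p* = 0.706). *DSN1* had -0.14 with an interval from -0.33 to 0.056, and its 4-OHT libraries all lay below the controls. *PMF1*, the other subunit, which is listed among the further pathway genes, also lay lower in every 4-OHT library, with -0.24 ± 0.091 and an interval from -0.43 to -0.043 (edgeR unadjusted *p* = 0.0198, adjusted *p* = 0.170). *DERL2* overlaps 9.5% of the exons of *MIS12* on the other strand, and *PMF1-BGLAP* overlaps 23.3% of those of *PMF1* on the same strand. For *MIS12* the interval was -0.14 to 0.18, so that drops of the size seen in *NDC80* or *KNL1* lay outside the intervals of all 4 subunits.

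In the SKA complex, *SKA3* was at 8.01, 8.23 and 6.80 CPM in control CM and at 5.71, 4.13 and 4.41 CPM in 4-OHT CM, a log2 fold change of -0.70 ± 0.13 (edgeR adjusted *p* = 0.00516). *SKA2* was at 56.8, 61.6 and 62.1 CPM and then at 57.6, 59.8 and 59.3 CPM. Its groups overlapped, and its log2 fold change was -0.03 with an interval from -0.12 to 0.062.

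Of the corona genes, which form the outermost layer of unattached kinetochores, 2 of 3 were downregulated DEGs. *CENPF*, a large coiled-coil protein that rises in G2 and M phase, was at 29.9, 26.9 and 31.9 CPM in control CM and at 18.5, 16.3 and 16.1 CPM in 4-OHT CM. Control and 4-OHT libraries were far apart. The level fell by 42.9%, a log2 fold change of -0.81 ± 0.075 (edgeR adjusted *p* = 1.56e-05), the smallest adjusted *p* of the 39 genes. *CENPE*, the kinesin that carries chromosomes to the spindle equator, was at 16.7, 17.6 and 16.9 CPM and then at 13.1, 12.1 and 12.6 CPM (-0.44 ± 0.072, edgeR adjusted *p* = 0.00146). *ZW10*, a dynein adaptor that also acts in membrane traffic between divisions, was at 19.6, 22.2 and 21.4 CPM and then at 21.0, 19.4 and 18.8 CPM, with overlapping groups and a log2 fold change of -0.09 (edgeR adjusted *p* = 0.554).

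All 5 checkpoint genes were downregulated DEGs with groups that did not overlap, and their median log2 fold change was -0.48. *BUB1*, the kinase that marks centromeric chromatin for the shugoshins, was at 17.4, 17.7 and 16.3 CPM in control CM and at 11.9, 10.5 and 11.5 CPM in 4-OHT CM (-0.60 ± 0.077, edgeR adjusted *p* = 0.000216). *MAD2L1*, which encodes the MAD2 protein that captures CDC20, was at 17.7, 18.8 and 17.9 CPM and then at 14.2, 12.4 and 12.6 CPM (-0.48 ± 0.075, edgeR adjusted *p* = 0.00113). Both calls held with each library left out, and the drop of *MAD2L1* was under 1.5-fold.

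The other 3 checkpoint calls were less firm. *TTK*, the kinase MPS1 that starts checkpoint signaling, was at 5.43, 9.07 and 7.24 CPM in control CM and at 4.98, 5.05 and 4.19 CPM in 4-OHT CM. Replicate 1 of control CM lay close to the 4-OHT libraries. Its log2 fold change was -0.61 ± 0.16 (edgeR adjusted *p* = 0.0351, up to 0.145 over the alternatives). *BUB1B*, which encodes BUBR1, was at 12.8, 12.1 and 15.6 CPM and then at 11.6, 8.38 and 9.82 CPM (-0.45 ± 0.12, edgeR adjusted *p* = 0.0313, up to 0.173 over the alternatives). *BUB1B-PAK6*, which had no counts, covers 10.2% of the *BUB1B* exons on the same strand. *BUB3*, which binds both BUB1 and BUBR1, had means of 101 ± 1.13 CPM and 91.6 ± 1.48 CPM (SD over 3 libraries) and a small log2 fold change, -0.14 ± 0.036 (edgeR adjusted *p* = 0.0310, up to 0.129 over the alternatives). With 1 library left out, 2 to 4 of the 5 genes were DEGs. There were 2 without control CM replicate 3 or 4-OHT CM replicate 2 or 3, 3 without replicate 1 of either group and 4 without control CM replicate 2.

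**Figure D3:**
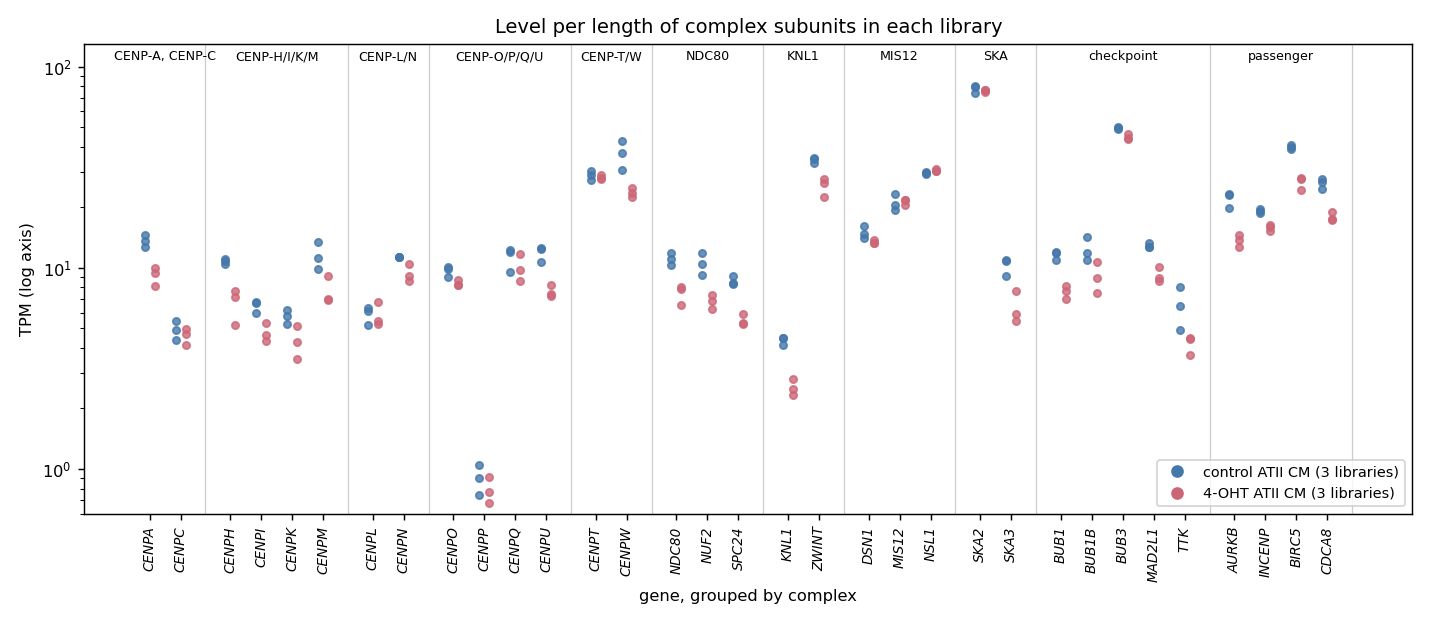
Level per length (TPM, log axis) of 33 complex subunits in each of the 6 libraries, arranged by complex. In CENP-T/W and SKA, a subunit whose groups overlap (*CENPT*, *SKA2*) stands beside a subunit that was lower in every 4-OHT library (*CENPW*, *SKA3*).

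All 4 genes of the chromosomal passenger complex were downregulated DEGs with separate groups, and their median log2 fold change was -0.56. *AURKB*, the kinase that destabilizes wrong attachments, was at 12.7, 10.97 and 12.6 CPM in control CM and at 7.90, 7.06 and 7.57 CPM in 4-OHT CM (-0.69 ± 0.093, edgeR adjusted *p* = 0.000325). *BIRC5*, which encodes survivin, the subunit that reads histone phosphorylation at the centromere, was at 36.8, 38.2 and 36.6 CPM and then at 22.7, 26.7 and 25.9 CPM. With *CENPF* it had the smallest adjusted *p* values, 4.6e-05 in edgeR for *BIRC5*, at a log2 fold change of -0.56 ± 0.061. *CDCA8*, which encodes borealin, was at 14.8, 16.2 and 16.7 CPM and then at 11.4, 10.6 and 10.7 CPM (-0.55 ± 0.079, edgeR adjusted *p* = 0.000524). *INCENP*, the scaffold of the complex, showed the smallest drop of the 4, from 21.0 ± 0.601 CPM to 17.5 ± 0.460 CPM (SD, n = 3 each). Its log2 fold change was -0.26 ± 0.064 (edgeR adjusted *p* = 0.0239), and its edgeR adjusted *p* was 0.0535 to 0.102 when any library other than control CM replicate 2 was left out.

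Of the shugoshins, which shield cohesin at centromeres, 1 of 2 was a downregulated DEG. *SGO2* was at 14.5, 13.6 and 14.2 CPM in control CM and at 12.8, 10.5 and 10.8 CPM in 4-OHT CM. Its log2 fold change was -0.31 ± 0.087 (edgeR adjusted *p* = 0.0462), and the call was lost in DESeq2 (adjusted *p* = 0.0726) and after thinning (edgeR adjusted *p* = 0.0910). It was also lost without control CM replicate 1 or 3 or 4-OHT CM replicate 2 or 3 (edgeR adjusted *p* = 0.130 to 0.188). *SGO1*, the main protector of mitotic cohesion, had 260 counts in all, shares 17.7% of its exons with *SGO1-AS1* (at most 1 count in a library) and was at 2.30, 2.07 and 2.38 CPM and then at 1.92, 2.01 and 1.07 CPM. Replicate 3 of 4-OHT CM was the lowest, and the log2 fold change of -0.45 ± 0.23 was not called (edgeR adjusted *p* = 0.335).

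Besides the 1.5-fold minimum, which left 11 DEGs, 16 alternatives were run, and 15 of the 24 DEGs were called under every one of these (*CENPH*, *CENPU*, *NDC80*, *NUF2*, *SPC24*, *KNL1*, *ZWINT*, *SKA3*, *CENPE*, *CENPF*, *BUB1*, *MAD2L1*, *AURKB*, *BIRC5* and *CDCA8*). The other 9 lost the call under at least 1 of the 16. *CENPA* missed it without 4-OHT CM replicate 2 (edgeR adjusted *p* = 0.0563) and after all libraries were thinned to the smallest total (0.0535), and *CENPW* without control CM replicate 1 (edgeR adjusted *p* = 0.0571). *CENPI* and *CENPM* were lost without control CM replicate 2 or 3 and without 4-OHT CM replicate 2 or 3 (edgeR adjusted *p* = 0.0592 to 0.159), and *CENPI* also in DESeq2 (adjusted *p* = 0.0674) and after thinning (edgeR adjusted *p* = 0.199). Inner kinetochore DEGs numbered 3 without 4-OHT CM replicate 2. None of the 15 tested genes that were not DEGs became one under any alternative that gave an adjusted *p* (*SPC25* had none with filterByExpr or in DESeq2).

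Levels between genes were compared per length, as TPM (counts divided by the length of a gene's merged exons and scaled to a common sum). In control CM the highest was *SKA2* at 78.1 ± 3.20 TPM, followed by *BUB3* at 49.7 ± 0.427, *BIRC5* at 39.9 ± 0.822 and then *CENPW* at 36.9 ± 5.92 and *ZWINT* at 34.5 ± 0.963 (SD, n = 3). *CENPW* did not differ from its neighbors in this order beyond its spread. *NSL1* (29.6 ± 0.326 TPM), *CENPT* (28.9 ± 1.47) and *ZW10* (28.8 ± 1.59) also lay within their spread of each other. The lowest levels were those of *KNL1* at 4.37 ± 0.215 TPM, *SGO1* at 2.40 ± 0.180, *SPC25* at 1.57 ± 1.67 and *CENPP* at 0.897 ± 0.152. Other genes cover 42.7% of the *CENPP* exons and *SPC25* has a near-identical copy, and the part of these in the order was not tested. Genes that were not DEGs were found at both ends, from *SKA2* with 8029 counts in all to *SPC25* with 66.

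Since subunits of a complex shared a library, the level of a subunit was also set against that of its partner within each library. The 6 pairs were chosen after the values were seen, so the ratios describe the differences above on another scale, and no *p* is given for them. *CENPA* per *CENPC* was 2.96, 2.90 and 2.51 in control CM and 2.01, 1.97 and 2.01 in 4-OHT CM. *KNL1* per *MIS12* went from 0.208 ± 0.0191 to 0.120 ± 0.0146 (SD, n = 3 each). The ratios of *CENPW* to *CENPT* (1.28 ± 0.249 against 0.842 ± 0.0547), *SKA3* to *SKA2* (0.132 ± 0.0171 against 0.0835 ± 0.0165) and *BUB1* to *BUB3* (0.234 ± 0.00896 against 0.170 ± 0.00795) were likewise lower in every 4-OHT library. *NDC80* per *NUF2*, 2 DEGs of 1 complex, was 1.07 ± 0.124 and 1.10 ± 0.0503 with overlapping groups.

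**Figure D4:**
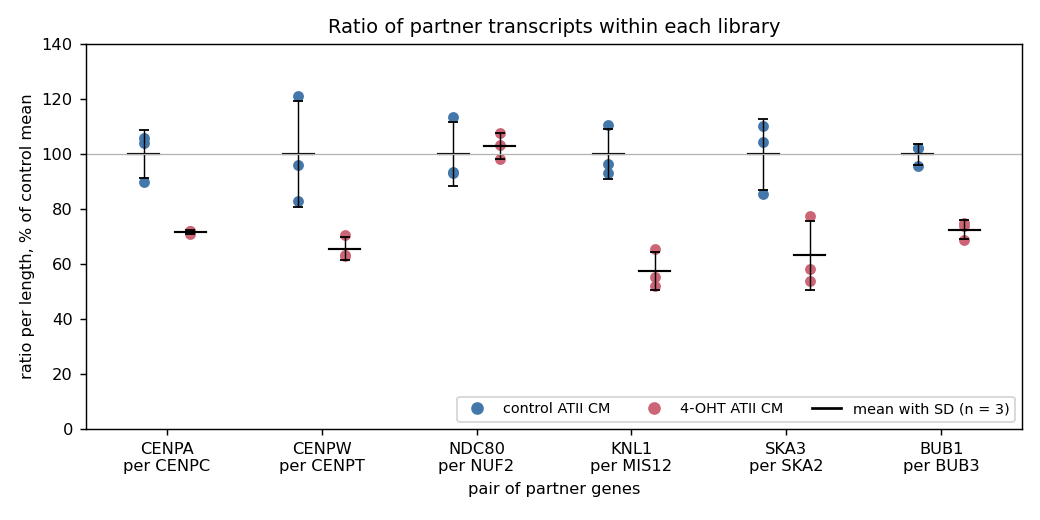
Ratio of partner transcripts per length within each library as a percentage of the control mean (points), with the mean and SD of the 3 libraries of each group. In 5 pairs every 4-OHT CM library lies below every control library, whereas *NDC80* per *NUF2* overlaps.

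A further 23 genes of the same pathway, listed beside the 40, gave 10 downregulated DEGs and 0 upregulated, with a median log2 fold change of -0.26 and 15 genes whose 4-OHT libraries all lay below the controls. Among factors that load and maintain CENP-A, the chaperone *HJURP* was a DEG at -0.57 ± 0.091 (edgeR adjusted *p* = 0.00126), from 15.3 ± 0.915 to 10.3 ± 1.17 CPM (SD, n = 3 each). The log2 fold change of the licensing factor *MIS18A* was -0.15, and it was not called. *CENPB*, which binds alphoid DNA directly, had -0.01 with an interval from -0.12 to 0.11.

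Among regulators of the checkpoint and of anaphase, *ESPL1* (separase) had the largest drop, from 8.47 ± 1.28 to 5.08 ± 0.251 CPM, a log2 fold change of -0.74 ± 0.12 (edgeR adjusted *p* = 0.0016). Its inhibitor *PTTG1* (securin) changed by -0.53 ± 0.073, the checkpoint target *CDC20* by -0.42 ± 0.065 and the MAD2 remodeler *TRIP13* by -0.42 ± 0.078. *MAD1L1* (-0.13) and *MAD2L1BP* (0.02) were not DEGs. Of the spindle and attachment factors, *PLK1* changed by -0.47 ± 0.075, *SPAG5* (astrin) by -0.50 ± 0.077, the microtubule depolymerase *KIF2C* by -0.45 ± 0.081 and *KNSTRN*, which binds astrin, by -0.26 ± 0.064. In the RZZ complex, which *ZW10* forms with them, *ZWILCH* was a DEG at -0.30 ± 0.080 and *KNTC1* was not at -0.35 ± 0.10 (edgeR adjusted *p* = 0.0415 and 0.0529). In *CENPS*, with 147 counts in all, the log2 fold change was 0.34 ± 0.30 and the groups overlapped. *CENPS-CORT*, with at most 1 count in a library, covers 64.75% of the *CENPS* exons on the same strand, so the count of *CENPS* may be incomplete.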

How the data were processed

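RNA-Seq was performed by the study in 6 libraries of MRC5 cells (NEBNext Ultra kit, poly(A) RNA, paired-end reads). Per the submitters' processing notes and the study's methods, adapters were removed with Trim Galore, alignment to GRCh38 used HISAT2 (version 2.1.0), and reads were assigned to genes by featureCounts (version 1.6.5). The values the authors deposited are these raw counts, not normalized. The annotation release, strand setting and treatment of multiply mapped reads are not given in the sources used here.

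Here, duplicate identifiers were summed and genes with at least 10 counts over the 6 libraries were kept. The quasi-likelihood test of edgeR 4.0.16 (R 4.3.3) was applied with TMM scaling and group alone in the model over all 19072 genes with Benjamini-Hochberg adjustment and a threshold of 0.05. The abundance filter passed 39 of the 40 genes, also through the group in which a gene is higher. CPM values use TMM library sizes, TPM values use the exon lengths of the deposited table, and the standard error of a fold change was obtained by dividing it by the root of its F statistic. Symbols came from GENCODE release 44. Transcripts were aligned with minimap2 2.31, and a copy with at least 50% of the transcript and 95% identity was taken as near-identical. Alternatives were DESeq2 1.42.0, limma-voom (limma 3.58.1), RLE and upper quartile scaling, 2 other abundance filters, a replicate block, thinning to the smallest library, a GC and length correction with and without the block, a 1.5-fold minimum and leaving out each library. The fit was also run on simulated counts. These had 1 dispersion for all genes and changes only in genes above 50 counts. They do not speak for genes with few reads or a wide spread. All 40 genes are named, beside pathway genes that passed the test, some that did not (chosen after their values were seen), and *MKI67* and *TOP2A*. The genes and lists were chosen with earlier results of these data known. The values of 1 listed pathway gene are not reported here.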

Additional observations from a re-analysis of the deposited data

How the results depend on the processing

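No DEG reversed its direction under an alternative, and 0 genes were upregulated DEGs in any of them. The number of downregulated DEGs among the 39 genes was 24 and lay between 20 and 24 under the other tests, scalings, filters and corrections. Leaving out 1 library gave 16 to 21 and a median log2 fold change of -0.52 to -0.42. Over the same libraries the inner kinetochore had 3 to 6 DEGs and a median of -0.42 to -0.28, the outer kinetochore a median of -0.62 to -0.41, the checkpoint 2 to 4 DEGs and a median of -0.57 to -0.44, the shugoshins 0 to 1 DEGs, and the 23 further pathway genes a median of -0.32 to -0.25. Thinning all libraries to the smallest total moved the inner kinetochore median to -0.28. The shugoshins had 0 DEGs with DESeq2, with the replicate block, after thinning and with the 1.5-fold minimum. That minimum, by its construction, left 11 DEGs among the 39 genes, 3 in the inner kinetochore, 4 in the outer kinetochore, 1 in the corona, 2 in the checkpoint, 1 in the passenger complex and 0 in the shugoshins, and 1 DEG among the further pathway genes. The cause of the other shifts was not tested. Downregulated DEGs among all genes numbered 527, with 244 when replicate 2 of 4-OHT CM was left out and 834 when replicate 2 of control CM was, and upregulated DEGs numbered 563 and 289 to 696. Deviations of libraries that share a replicate number had correlations of -0.014, -0.10 and -0.093. With 3 libraries per group these values cannot show whether libraries of the same number were made together, which the labels do not say. The fit with a replicate block gave 20 DEGs among the 39 genes, without *CENPI*, *CENPM*, *BUB3* and *SGO2* (edgeR adjusted *p* = 0.0545 to 0.0567). Few reads were counted for *SPC25*, *SKA1*, *SGO1* and *CENPP*, and the spread of *SPC25* between replicates was wide, so that its log2 fold change went from -2.70 to 0.40 when 1 library was left out.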
